A study of Mus musculus with 21 samples.

Results

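Gene expression in mouse CD8+ T cells was compared between medium conditioned by leukaemia cells and medium conditioned by dendritic cells. Splenic T cells of wildtype animals were stimulated with beads carrying antibodies to CD3 and CD28 and kept for 48 h in filtered culture supernatant, after which CD8+ cells were taken out by magnetic separation and their RNA was put on 1-colour Affymetrix arrays. The AML group of 7 arrays had received supernatant of WEHI-3B, a mouse myelomonocytic leukaemia line that stands for acute myeloid leukaemia (AML) here, and the DC group of 7 arrays that of dendritic cells grown from bone marrow. These 14 of the 21 arrays of the study form the comparison, and all 19505 genes with a unique symbol were tested in it. The other 7 arrays, from T cells in fresh medium, are given as ranges for position only. All 3 groups shared the activation, the culture time and the wildtype genotype, and they differed in the medium. One leukaemia line stood for AML, so properties of that line and of leukaemia cannot be told apart. The labels call the 7 samples of a group biological replicates. The labels mostly name CD8+ T cells, but one field gives CXCL12-abundant reticular cells, a stromal cell of bone marrow.

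Medium from another cell culture can act on T cells in several ways. It carries secreted cytokines such as TGF-beta, which binds a receptor pair that phosphorylates SMAD2 and SMAD3 and, with SMAD4, alters transcription. It has also been depleted of glucose and amino acids and enriched in products such as lactate. Activated CD8+ T cells take up glucose at a high rate, and many genes of glucose metabolism are targets of hypoxia-inducible factor (HIF), whose alpha subunit is destroyed in oxygenated cells by prolyl hydroxylases of the EGLN family. Shortage of amino acids is read by the kinase GCN2, which raises translation of the transcription factor ATF4. Both supernatants were conditioned by cells, and their composition was not measured here, so a difference may come from either medium.

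Cells of the T lineage were measured in both groups. *Cd8a*, a chain of the CD8 co-receptor, had a median log2 level of 11.69 in the AML arrays and 11.73 in the DC arrays, and *Cd3e*, of the T cell receptor complex, 11.95 and 11.81. None of 9 T cell and CD8 markers was called, with a list median of 0.00. The natural killer cell list, with 1 rise and 1 fall among 6 genes, is given with the granule genes below. Across 8 B cell, 15 myelomonocytic, 10 dendritic, 8 reticular, 4 erythroid and 4 gamma delta T cell markers none was called, and the median member of these lists had a mean level between 3.8 and 5.2. Of the dendritic markers 2 had an unadjusted p under 0.05. The largest difference among them was 1.04, in the chemokine *Ccl22*, which was called without AML replicates 6 and 7 (1.425, adjusted p = 0.0178). The defining reticular marker *Cxcl12* lay at a mean of 5.49 and 5.35 in the AML and DC arrays. The arrays give no separate signal over background, so a level this low cannot be called present or absent. The same limit holds for genes named below whose median in a group was as low, among them *Ccr8*, *Cth*, *Rtp4*, *Itga7*, *Prdm1* and *Il18*. The size of their differences is therefore uncertain.

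With limma and Benjamini-Hochberg adjustment over all genes, 249 genes (1.28%) were called at an adjusted p under 0.05. Of these, 124 (0.636%) were higher and 125 (0.641%) were lower after AML-conditioned medium, and 27 (0.138%) differed at least 2-fold, 12 upward (0.0615%) and 15 downward (0.0769%). Called differences ran from 0.26 to 2.34 on the log2 scale in absolute size, with a median of 0.53. The median difference over all genes was 0.01 and the median standard error (SE) was 0.09. Of the 19505 genes tested, 2874 had an unadjusted p under 0.05. All 7 AML arrays lay above all 7 DC arrays for 85 genes (0.436%) and below them for 74 (0.379%). For the called genes the SD was larger among the AML arrays, with a median of 0.245 against 0.165 among the DC arrays. Over all genes the median SDs were 0.165 and 0.158.

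The 7 AML arrays did not respond to the same extent. Over the 125 genes called lower, the median distance from the DC mean was -0.85 and -0.81 in AML replicates 4 and 5, between -0.57 and -0.47 in replicates 1 to 3, and -0.25 and -0.33 in replicates 6 and 7. The 124 genes called higher followed the same order, with 0.62 and 0.73 in replicates 4 and 5, 0.49 to 0.54 in replicates 1 to 3, and 0.33 and 0.34 in replicates 6 and 7. Replicates 1 to 3 and 4 to 7 also stood apart in both media. In a limma fit of medium, set and their interaction over all 14 arrays, 1774 of 19505 genes differed between the sets of DC arrays (adjusted p under 0.05). The spread in that fit came from the AML arrays too. The labels do not name a batch. Without AML replicates 4 and 5 the number of called genes was 79, and without replicates 6 and 7, an analysis added after the data were seen, it was 872.

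Within replicates 1 to 3 alone 349 genes (1.79%) were called, 219 higher and 130 lower, and within replicates 4 to 7 alone 10 (0.0513%), 8 higher and 2 lower, while 3071 genes of the latter set had an unadjusted p under 0.05. All 249 called genes had the same sign in both sets. They were called over both sets together, which favours equal signs, so this is no separate support. Of them, 119 were also called within replicates 1 to 3 alone and 8 within replicates 4 to 7 alone. The 6 genes called in each set by itself were *Ski*, *Skil*, *Pmepa1*, *Tlr7*, *Eya2* and *Ankrd55*, the last of which was not called over the 14 arrays. An interaction of medium with replicate set was called for 1 gene, *Ciart* (0.00513% of genes), and 1998 genes had an unadjusted p under 0.05 for it.

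**Figure D1:**
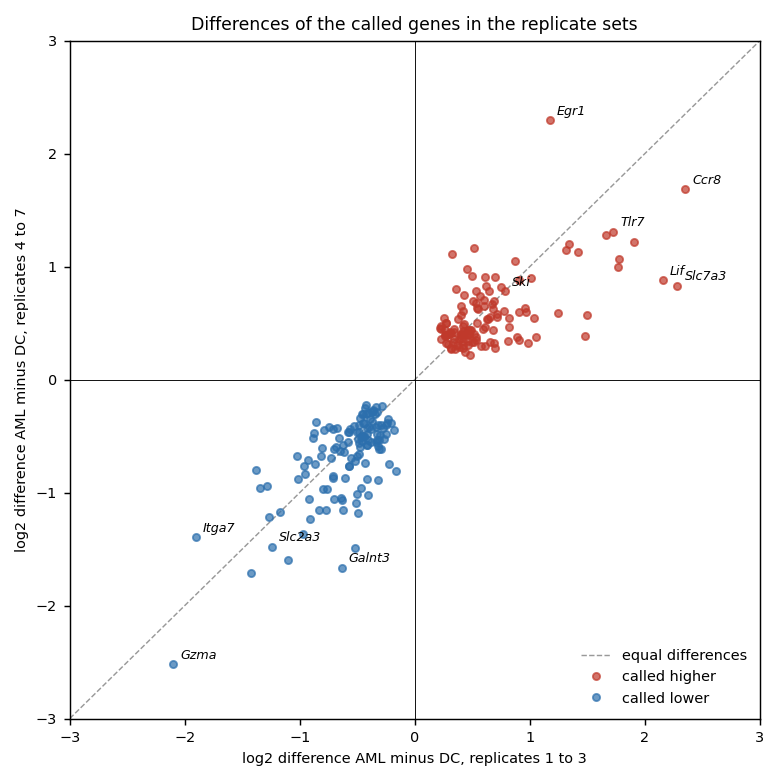
Log2 differences between AML- and DC-conditioned medium for the 249 called genes, with replicates 1 to 3 on the x axis and 4 to 7 on the y axis. Every point has the same sign on both axes, which calling the genes over both sets together favours. *Egr1* lies above the dashed line of equal differences with 1.17 and 2.30, and *Slc7a3* below it with 2.28 and 0.83.

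Genes that respond to TGF-beta in T cells were higher after AML-conditioned medium. Of 15 measured members of this list 7 rose (46.7%) and none fell, with a median difference of 0.69. Over all genes 0.636% were called higher. This was the only one of 44 pathway lists in which at least 25% of the measured members were called. That number depended on the model: with the replicate set as a block 15 lists reached that share. The lists were chosen with earlier results of these data known, so the place of this list among them is no independent support. The mean of the list lay between 0.30 and 1.12 above its DC average in the AML arrays and between -0.13 and 0.14 in the DC arrays, so that all 7 AML arrays were above all DC arrays. Fresh-medium arrays ranged from -0.21 to 0.08. The members that rose were *Ski*, *Skil*, *Pmepa1*, *Ldlrad4*, *Rgs1*, *Cish* and *Ccr8*. Without AML replicates 4 and 5 the count was 6, and over the 29 alternatives it lay between 3 and 9. Those 6 were not all among the 7: *Cish* lost its call there (adjusted p = 0.057) and *Gpr83* gained one (0.79, adjusted p = 0.0466). Replicates 1 to 3 had a median of 0.32, against 0.78 for the set of 4 to 7.

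Some of these encode feedback regulators of the pathway itself. *Ski* (transcript cluster TC0400004136.mm.2) encodes a co-repressor that binds SMAD proteins. Its log2 level lay between 7.84 and 8.10 in the AML arrays (median 8.03) and between 7.12 and 7.31 in the DC arrays (median 7.22), a difference of 0.78 (SE 0.06, adjusted p = 4.05e-06). The groups were well separated, the fresh-medium arrays reached 7.25, and the difference was 0.78 in both sets of replicates. *Skil*, which encodes the related co-repressor SnoN, had 8.55 to 8.83 (median 8.67) in the AML arrays and 7.80 to 8.23 (median 7.99) in the DC arrays. Its difference was 0.68 (SE 0.07, adjusted p = 7.65e-05), again without overlap. *Pmepa1* (TC0200005291.mm.2), whose membrane protein sequesters receptor-activated SMADs, ranged from 7.36 to 7.99 (median 7.66) against 6.60 to 6.92 (median 6.73). This was a difference of 0.95 (SE 0.09, adjusted p = 3.61e-05), and no array of one group reached the other. *Ldlrad4*, a relative of *Pmepa1* with the same kind of action, had 5.99 to 6.55 (median 6.18) against 5.01 to 5.98 (median 5.50). It differed by 0.77 (SE 0.15, adjusted p = 0.0175), and the groups nearly touched. It reached 0.32 in replicates 1 to 3 against 1.11 in the set of 4 to 7.

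*Ccr8*, a chemokine receptor found on regulatory and skin-homing T cells, had the largest rise of all called genes. It ranged from 5.51 to 8.31 (median 7.51) in the AML arrays and from 4.43 to 5.62 (median 5.25) in the DC arrays. The difference was 1.97 (SE 0.34, adjusted p = 0.0101), 3.92-fold. All AML arrays except replicate 6 were above every DC array. *Cish*, whose product is a SOCS family inhibitor of cytokine and T cell receptor signals, ranged from 7.27 to 9.34 (median 8.09) against 5.90 to 7.64 (median 6.77). The difference was 1.51 (SE 0.29, adjusted p = 0.0167), with 6 of 7 AML arrays above all DC arrays. Without AML replicates 4 and 5 it was 1.14 (adjusted p = 0.057). *Rgs1*, a brake on signalling by chemokine receptors, rose by 0.69 (SE 0.13, adjusted p = 0.0143).

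Members that did not pass included *Itgae*, which encodes CD103, the integrin chain of tissue-resident T cells. Its level ran from 7.70 to 8.43 (median 8.12) after AML-conditioned medium and from 6.75 to 8.14 (median 7.15) after DC-conditioned medium, a difference of 0.71 (SE 0.19, adjusted p = 0.0758). The groups overlapped, and the fresh-medium arrays, at 5.97 to 6.91, all lay below the AML arrays. *Itgae* was called within replicates 4 to 7 (1.06, adjusted p = 0.00543) but differed by 0.24 in replicates 1 to 3, and it was called without AML replicate 6 (adjusted p = 0.0471) or DC replicate 1 (0.0319). *Gpr83*, a receptor found on regulatory T cells, differed by 1.49 (SE 0.40, adjusted p = 0.0706). It was called within replicates 1 to 3 (1.18, adjusted p = 0.0141), without AML replicate 6 (0.0237) and without AML replicates 4 and 5 (0.0466). *Smad7*, the inhibitory SMAD, differed by 0.22 (adjusted p = 0.247), *Tgfbi* by -0.09 and *Hic1* by -0.22.

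Among 14 genes of the ligand, its receptors and the SMADs, 1 was called and it fell. *Smad3*, the signalling SMAD whose messenger was lower, ranged from 8.38 to 8.93 (median 8.83) in the AML arrays and from 9.01 to 9.46 (median 9.22) in the DC arrays. The difference was -0.51 (SE 0.10, adjusted p = 0.016) with no overlap, and all fresh-medium arrays, at 9.01 to 9.62, also lay above the AML arrays. *Tgfb1* itself differed by 0.23 (SE 0.06, adjusted p = 0.0758), *Tgfbr1* by 0.42 (adjusted p = 0.111), *Tgfbr2* by 0.05 and *Smad2* by 0.14. *Tgfb1* was called without AML replicate 6 (0.25, adjusted p = 0.0402).

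Markers of CD4+ and regulatory T cells were examined beside the TGF-beta response list. None of 5 CD4 T cell markers was called, but 4 of them had an unadjusted p under 0.05, as did 2874 of all 19505 genes. The mean of the list lay between -0.06 and 0.70 in the AML arrays and between -0.23 and 0.32 in the DC arrays. *Cd4* ranged from 7.80 to 9.03 (median 8.64) against 7.56 to 8.57 (median 7.92), a difference of 0.54 (adjusted p = 0.146). It was called without AML replicate 6 (0.67, adjusted p = 0.0284). *Izumo1r*, the folate receptor 4 of regulatory and anergic CD4+ cells, differed by 1.13 (adjusted p = 0.0578), and was called without AML replicate 6 (adjusted p = 0.0126) or 7 (0.0241) and within replicates 1 to 3 (0.97, adjusted p = 0.0124). Of 6 measured regulatory T cell markers none was called, with a median of 0.37 and list means of 0.09 to 1.04 against -0.29 to 0.16. *Gpr83* belongs to both that list and the TGF-beta response list. The part of CD4+ cells left after separation in these results was not tested, and in RNA of a whole sample fewer cells of a type and less RNA per cell cannot be told apart.

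**Figure D2:**
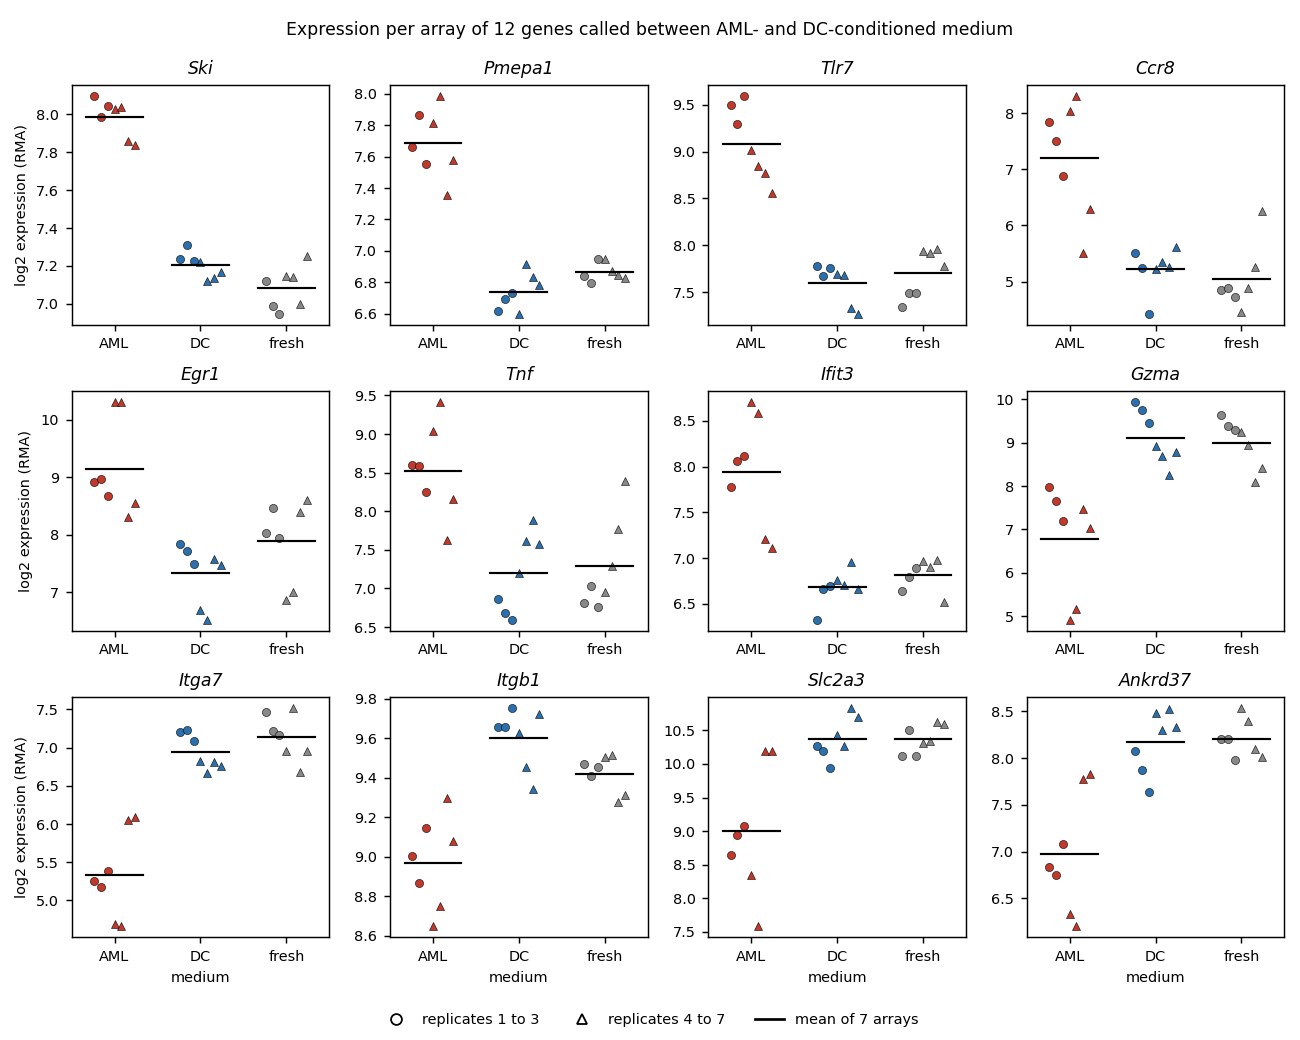
Log2 expression in each array for 12 called genes, by medium (AML-conditioned, DC-conditioned, fresh); circles are replicates 1 to 3, triangles replicates 4 to 7 and bars the mean of 7 arrays. *Ski*, *Pmepa1*, *Tlr7*, *Egr1*, *Ifit3*, *Gzma*, *Itga7* and *Itgb1* show no overlap between AML and DC arrays, while for *Slc2a3* and *Ankrd37* the AML arrays span from 7.58 to 10.20 and from 6.20 to 7.83 and 2 of them reach the DC arrays.

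Genes of the hypoxia response and of glucose metabolism were lower in most AML arrays. Of 20 measured hypoxia genes outside glycolysis 3 fell and none rose, the median difference was -0.63, and 18 members had an unadjusted p under 0.05. Of 18 genes of glucose uptake and glycolysis 3 fell and none rose, with a median of -0.46 and 15 members with an unadjusted p under 0.05. For comparison, 0.641% of all genes were called lower, and 2874 of all 19505 had an unadjusted p under 0.05. For the hypoxia list the means per array were between -1.43 and -0.60 in AML replicates 1 to 5, and -0.09 and -0.15 in replicates 6 and 7, inside the DC range of -0.39 to 0.24. The glycolysis list showed the same split, with -1.11 to -0.54 in replicates 1 to 5, 0.02 and -0.11 in replicates 6 and 7, and -0.20 to 0.19 in the DC arrays. The count of falls hung on these arrays. It was 0 in both lists without AML replicates 4 and 5, and 13 and 15 without replicates 6 and 7. The medians were -0.47 and -0.37 in replicates 1 to 3, and -0.78 and -0.57 in replicates 4 to 7.

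**Figure D3:**
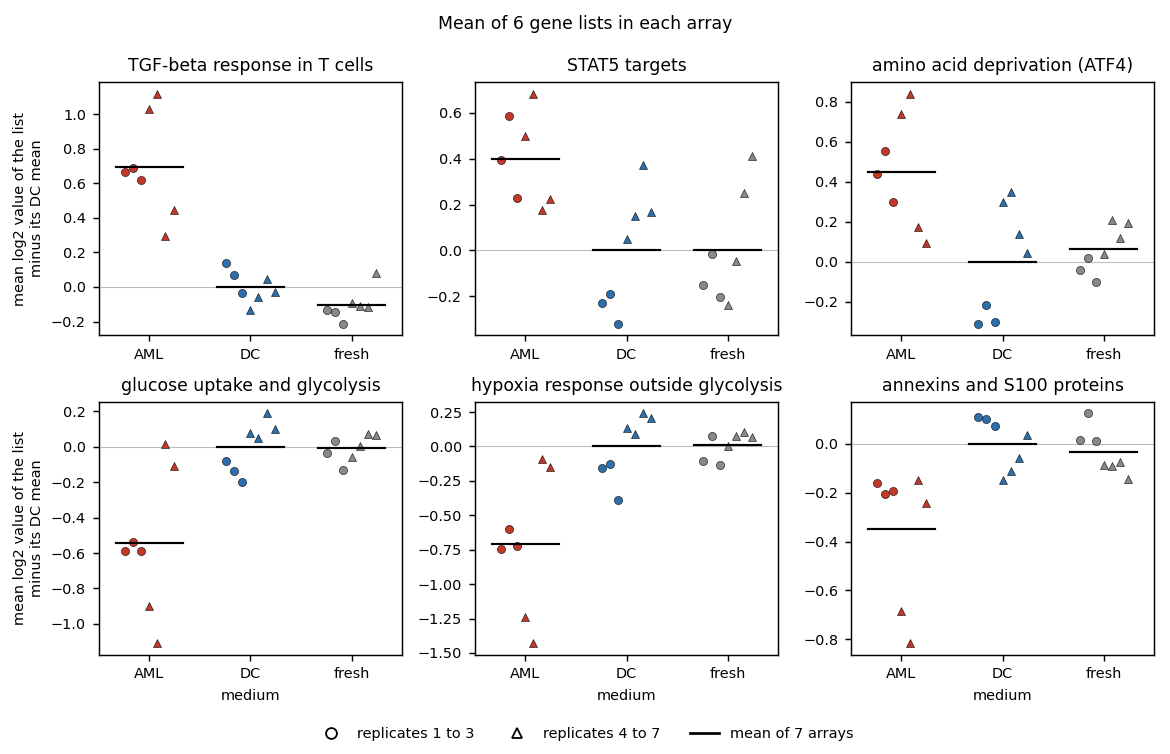
Mean log2 value of 6 gene lists in each array, minus the mean of the list over the DC arrays, by medium; circles are replicates 1 to 3, triangles replicates 4 to 7 and bars the mean of 7 arrays. The TGF-beta response separates all AML arrays (0.30 to 1.12) from all DC arrays (up to 0.14), whereas the hypoxia list has AML replicates 4 and 5 at -1.24 and -1.43 and replicates 6 and 7 at -0.09 and -0.15, within the DC arrays.

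HIF binds DNA at a short core, ACGTG. Promoter sequences are shown for the 2 called members of the hypoxia list with the smallest adjusted p, to place this core before the gene start. They are the 250 bases before the start in RefSeq's annotation of GRCm38.p6, read 5′ to 3′ on the strand of the gene, with ACGTG in capitals: *Ankrd37* at chr8:45999851-46000100 and *Egln1* at chr8:124949255-124949504, both on the minus strand.
Ankrd37: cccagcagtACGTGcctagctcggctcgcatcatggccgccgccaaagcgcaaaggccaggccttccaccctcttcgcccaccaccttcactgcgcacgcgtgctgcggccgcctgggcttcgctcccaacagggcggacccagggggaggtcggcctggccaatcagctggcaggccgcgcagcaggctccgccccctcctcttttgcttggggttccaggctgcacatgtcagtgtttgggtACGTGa
Egln1: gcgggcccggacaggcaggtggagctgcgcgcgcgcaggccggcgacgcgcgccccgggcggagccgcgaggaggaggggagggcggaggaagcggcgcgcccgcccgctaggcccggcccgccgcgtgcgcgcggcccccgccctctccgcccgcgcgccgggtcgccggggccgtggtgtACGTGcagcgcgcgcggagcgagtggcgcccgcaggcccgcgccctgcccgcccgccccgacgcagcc
The matches begin 241 and 6 bases before the start of *Ankrd37* and 68 bases before that of *Egln1*. Within 250 bases before to 50 after the start, ACGTG on either strand was found for 13 of 17 hypoxia list members with an entry (76.5%), 24% of the 15691 tested genes with one and 19.6% of all 32851 promoters of that length. It was found for 42 of 103 called genes that were lower (40.8%) and for 22 of 93 that were higher (23.7%). The motif overlaps the E-box CACGTG, which 3 of the 17 hypoxia members (17.6%) and 9.26% of tested genes held. The hypoxia list was built from known HIF targets, so the share among its members describes the list.

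*Ankrd37*, a HIF target with ankyrin repeats, ranged from 6.20 to 7.83 (median 6.84) in the AML arrays and from 7.64 to 8.52 (median 8.30) in the DC arrays. The difference was -1.20 (SE 0.23, adjusted p = 0.0149), with 5 of 7 AML arrays below every DC array and all 7 below every fresh-medium array. *Egln1*, the prolyl hydroxylase that marks HIF alpha for destruction and is itself a HIF target, ranged from 9.01 to 10.39 (median 9.71) against 10.25 to 10.61 (median 10.52). It differed by -0.75 (SE 0.17, adjusted p = 0.0403). *Higd1a*, a hypoxia-induced protein of the inner mitochondrial membrane, fell by 0.61 on the log2 scale (adjusted p = 0.0482). The call of *Egln1* was lost on leaving out any single array other than AML replicates 6 and 7 (adjusted p up to 0.0928), and that of *Higd1a* on leaving out any of 11 arrays (up to 0.109).

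Larger differences in this list missed the threshold, and in these genes the AML arrays were spread more widely than the DC arrays. *Ndrg1*, a stress-responsive gene, ranged from 7.35 to 10.02 (median 8.63) against 9.48 to 10.41 (median 9.97), a difference of -1.26 (SE 0.32, adjusted p = 0.0585). *Bnip3*, a receptor for removal of mitochondria, ranged from 7.34 to 9.88 (median 8.80) against 9.51 to 10.11 (median 10.07), a difference of -1.14 (SE 0.29, adjusted p = 0.0623). In each case 5 AML arrays lay below all DC arrays. *Egln3*, another prolyl hydroxylase, differed by -1.42 (adjusted p = 0.0861). *Hif1a* itself differed by -0.28 (adjusted p = 0.26), and *Vegfa*, a classical HIF target, by 0.02 (adjusted p = 0.972).

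The glucose transporter GLUT3, encoded by *Slc2a3*, had the largest fall of the glycolysis list. Levels ranged from 7.58 to 10.20 (median 8.94) in the AML arrays and from 9.94 to 10.83 (median 10.27) in the DC arrays, a difference of -1.38 (SE 0.31, adjusted p = 0.038), 2.60-fold lower. AML replicates 6 and 7 lay among the DC arrays and the other 5 below them. *Pfkp*, a subunit of phosphofructokinase, fell by 0.47 (SE 0.11, adjusted p = 0.0485), and *Pfkfb3*, which makes the activator of that enzyme, fell by 0.44 (SE 0.11, adjusted p = 0.0494). The calls of *Slc2a3* and *Pfkp* were lost on leaving out any single array other than AML replicates 6 and 7 (adjusted p up to 0.0928 and 0.109), and that of *Pfkfb3* on leaving out any of 10 arrays (up to 0.111).

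*Slc2a1*, encoding the transporter GLUT1, ranged from 9.24 to 11.16 (median 10.21) against 10.61 to 11.38 (median 11.25), a difference of -0.87 (SE 0.24, adjusted p = 0.0783). It was called when AML replicate 6 or 7 was left out (adjusted p = 0.0221 to 0.0248). Hexokinase 2, *Hk2*, differed by -0.77 (adjusted p = 0.092) and lactate dehydrogenase A, *Ldha*, by -0.24 (adjusted p = 0.146). *Hk2* was called without AML replicate 6 (-0.93, adjusted p = 0.015), and both were called without AML replicates 6 and 7 (0.00355 and 0.0182). Aldolase A, *Aldoa*, differed by -0.45 (adjusted p = 0.0548), with all 7 AML arrays, at 11.05 to 11.89, below all DC arrays, at 11.97 to 12.04. Glyceraldehyde-3-phosphate dehydrogenase, *Gapdh*, differed by -0.10 (adjusted p = 0.45).

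Of 13 genes of lactate and pyruvate handling 1 fell. *Pdk1*, the kinase that shuts pyruvate out of the mitochondrial citrate cycle and a HIF target, ranged from 9.72 to 10.51 (median 10.13) against 10.51 to 10.73 (median 10.66). The difference was -0.51 (SE 0.10, adjusted p = 0.0179), and no AML array exceeded a DC array. *Slc16a3*, encoding the lactate exporter MCT4, ranged from 7.01 to 10.22 (median 9.13) against 9.76 to 10.61 (median 10.47). The difference of -1.36 (SE 0.37) did not pass (adjusted p = 0.0789). *Slc16a3* was called without AML replicate 6 (adjusted p = 0.0234) or 7 (0.0348), and within replicates 1 to 3 (-0.84, adjusted p = 0.0056). *Slc16a1*, encoding the related transporter MCT1, differed by -0.05 (SE 0.13). None of 24 respiratory chain subunits (median -0.11) and none of 16 genes of fatty acid oxidation (median -0.13) was called. Of 16 pentose phosphate and NRF2 antioxidant genes, haem oxygenase *Hmox1* fell by 0.84 (SE 0.18, adjusted p = 0.0295), a call lost on leaving out any of 8 arrays (up to 0.0675).

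Genes of the amino acid deprivation response were mostly higher. Of 24 measured ATF4-linked genes 3 rose and 1 fell, the median was 0.44, and 16 had an unadjusted p under 0.05. For comparison, 0.636% of all genes were called higher, and 2874 of all 19505 had an unadjusted p under 0.05. List means lay between 0.09 and 0.84 in the AML arrays and between -0.31 and 0.35 in the DC arrays, with 4 AML arrays above all DC arrays. Replicates 1 to 3 had a median of 0.69, against 0.27 for the set of 4 to 7. The number of rises was 0 without AML replicates 4 and 5 and 12 without replicates 6 and 7.

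*Slc7a3*, a transporter for arginine and lysine, ranged from 7.86 to 9.48 (median 8.71) against 6.34 to 8.33 (median 7.51), a difference of 1.45 (SE 0.31, adjusted p = 0.0293). It reached 2.28 in replicates 1 to 3 against 0.83 in the set of 4 to 7. *Cth*, the enzyme that makes cysteine from cystathionine, ranged from 5.09 to 7.17 (median 6.11) against 4.23 to 5.57 (median 4.83). It rose by 1.37 (SE 0.29, adjusted p = 0.0257), with overlap of 2 AML arrays. *Slc6a9*, a glycine transporter, ranged from 7.50 to 8.28 (median 7.66) against 6.88 to 7.45 (median 7.11), without overlap, a difference of 0.64 (SE 0.13, adjusted p = 0.0194). The lipoprotein receptor *Vldlr* fell by 0.75 (adjusted p = 0.0436). Leaving out any of 7 arrays ended the call of *Slc7a3* and of *Cth* (adjusted p up to 0.0724 and 0.061), and any of 11 that of *Vldlr* (up to 0.102). Asparagine synthetase *Asns* differed by 0.76 (adjusted p = 0.0656), glutathione-degrading *Chac1* by 0.91 (adjusted p = 0.064) and *Atf4* itself by 0.42 (adjusted p = 0.083). Among 16 amino acid transporters *Slc7a3* rose and *Slc43a1*, a carrier of large neutral amino acids, fell by 0.82 (adjusted p = 0.0465), a call lost on leaving out any of 10 arrays (up to 0.104). None of 15 chaperones of the unfolded protein response of the endoplasmic reticulum was called (median -0.20), and 9 had an unadjusted p under 0.05.

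Several cytokines were higher. Of 22 measured cytokine genes 5 rose and none fell, while the median was 0.12. The 5 were *Tnf*, *Lta*, *Lif*, *Osm* and *Il24*. *Tnf*, encoding tumour necrosis factor, ranged from 7.63 to 9.42 (median 8.58) in the AML arrays and from 6.59 to 7.88 (median 7.21) in the DC arrays. The difference was 1.32 (SE 0.24, adjusted p = 0.0131), with 1 AML array among the DC arrays. Fresh-medium arrays ran from 6.76 to 8.39. *Lta*, its neighbour in the genome that encodes lymphotoxin alpha, ranged from 8.48 to 10.46 (median 9.0) against 7.72 to 8.79 (median 7.97), a difference of 1.22 (SE 0.27, adjusted p = 0.035). *Lif*, a member of the IL-6 family, ranged from 8.09 to 9.75 (median 8.97) against 6.60 to 8.41 (median 7.48), a difference of 1.43 (SE 0.29, adjusted p = 0.0235).

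*Osm*, oncostatin M of the same family, rose by 0.86 (SE 0.19, adjusted p = 0.0362). *Il24*, an IL-10 family cytokine, rose by 1.45 (SE 0.33, adjusted p = 0.038). For all 5 the difference was larger in replicates 1 to 3 than in 4 to 7, for example 2.15 against 0.88 for *Lif* and 1.48 against 0.39 for *Osm*. None of these differences between sets was called (the interaction was called for *Ciart* alone). Without AML replicates 4 and 5 no cytokine was called, and *Tnf* stood at 1.04 (adjusted p = 0.0509). Leaving out any of 10 arrays ended the calls of *Lta* (adjusted p up to 0.075) and *Il24* (up to 0.0928), and leaving out AML replicate 4 or 5 that of *Lif* (up to 0.0581). Interferon gamma, *Ifng*, ranged from 6.13 to 8.24 (median 7.35) against 5.63 to 6.89 (median 6.65). Its difference of 0.91 (SE 0.28) missed the threshold (adjusted p = 0.115), with 0.23 in replicates 1 to 3 and 1.43 in replicates 4 to 7. *Ifng* was called without AML replicate 1 (1.11, adjusted p = 0.0491).

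Targets of STAT5, the transcription factor downstream of IL-2, counted 4 rises and no fall among 18 genes, with a median of 0.30. The 4 were *Cish*, *Lta*, *Osm* and *Socs1*, of which 2 are also in the cytokine list and *Cish* in the TGF-beta response list. *Socs1*, an inhibitor of cytokine signalling, ranged from 8.46 to 9.19 (median 8.93) against 8.34 to 8.61 (median 8.43), a difference of 0.46 (SE 0.09, adjusted p = 0.0222). Its call was lost without AML replicate 5 (adjusted p = 0.0526). *Socs2* differed by 0.93 (adjusted p = 0.0508) and *Il2ra*, the alpha chain of the IL-2 receptor, by 0.57 (adjusted p = 0.0664). *Il2ra* was called within replicates 1 to 3 (1.08, adjusted p = 0.0174), and over the 29 alternatives its difference ran from 0.19 to 1.08. No STAT5 target was called without AML replicates 4 and 5, and 9 were without replicates 6 and 7. *Il15ra*, the receptor chain that presents IL-15, rose by 0.34 (SE 0.08, adjusted p = 0.0324) without overlap between groups, and leaving out any of 11 arrays ended its call (adjusted p up to 0.0792). *Il6ra*, the receptor for IL-6, ranged from 7.49 to 8.06 (median 7.58) against 6.20 to 7.35 (median 6.58). It rose by 0.89 (SE 0.17, adjusted p = 0.0175), and no AML array fell within the DC range.

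The mean of 21 activation transcription factors lay between 0.17 and 0.81 in the AML arrays and between -0.10 and 0.16 in the DC arrays, with a median difference of 0.33, and 1 of them rose. Fresh-medium arrays reached 0.29, above AML replicates 6 (0.17) and 7 (0.19). Of the 21 genes 13 had an unadjusted p under 0.05. *Egr1*, an immediate early factor induced through the kinase ERK, ranged from 8.30 to 10.31 (median 8.91) against 6.52 to 7.84 (median 7.49). The difference was 1.81 (SE 0.30, adjusted p = 0.00831), 3.52-fold, without overlap with the DC arrays. Fresh-medium arrays, from 6.86 to 8.61, reached into the AML range. AML replicates 4 and 5 were the highest, and without them the difference was 1.35 (adjusted p = 0.00674). The nuclear receptors *Nr4a1* and *Nr4a3*, induced by T cell receptor signals, differed by 1.02 (adjusted p = 0.0508) and 1.40 (adjusted p = 0.0585). *Nr4a1* was called without AML replicate 6 (adjusted p = 0.0216) or 7 (0.0204), and within replicates 1 to 3 (0.61, adjusted p = 0.031).

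Phosphatases that end ERK signals counted 2 rises among 12 genes of their list, with a median of 0.26, and the list mean of every AML array (0.13 to 0.31) exceeded that of every DC array (up to 0.06). *Dusp4* ranged from 6.39 to 6.97 (median 6.69) against 5.78 to 6.34 (median 6.03), a difference of 0.63 (SE 0.10, adjusted p = 0.00803). *Dusp2* ranged from 7.04 to 7.90 (median 7.13) against 6.44 to 6.90 (median 6.78), a difference of 0.61 (SE 0.14, adjusted p = 0.035). Neither overlapped, and leaving out any of 9 arrays ended the call of *Dusp2* (adjusted p up to 0.0776). None of 16 NF-kB genes was called (median 0.25), and 8 had an unadjusted p under 0.05. Their largest difference was 0.91, in *Cd83*, which was called without AML replicate 3 (adjusted p = 0.0262) or 6 (0.0374). *Slamf1*, a costimulatory receptor, rose by 0.51 (SE 0.09, adjusted p = 0.0115) and was the only 1 called of 11 in its list.

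The cytotoxic programme changed in single genes. Granzyme A, *Gzma* (TC1300002691.mm.2), a serine protease of killer cell granules, had the largest fall of all called genes. It ranged from 4.91 to 7.97 (median 7.20) after AML-conditioned medium and from 8.26 to 9.94 (median 8.93) after DC-conditioned medium. The difference was -2.34 (SE 0.42, adjusted p = 0.013), 5.07-fold lower, with no overlap and with all fresh-medium arrays (8.09 to 9.65) above the AML arrays too. AML replicates 4 and 5 were lowest, and without them the difference was -1.65 (adjusted p = 0.00674). *Ctsc*, the protease that activates granzymes, ranged from 9.99 to 10.29 (median 10.15) against 10.31 to 10.52 (median 10.37). It fell by 0.29 (SE 0.07, adjusted p = 0.0403) without overlap, and leaving out any single array other than AML replicates 6 and 7 ended the call (adjusted p up to 0.0958).

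Granzyme B, *Gzmb*, ranged from 11.05 to 11.74 (median 11.21) against 11.04 to 11.99 (median 11.70), a difference of -0.22 (SE 0.15, adjusted p = 0.55), and perforin, *Prf1*, differed by -0.04 (SE 0.14). In both genes the groups overlapped. Granzyme M, *Gzmm*, differed by -0.40 (adjusted p = 0.0515), with all AML arrays below all DC arrays. In all, 2 of 15 granule genes fell and none rose (median -0.20). *Gzma* is also expressed in natural killer cells. Of 6 measured markers of these cells *Gzma* fell and *Eomes*, a factor shared with CD8+ cells, rose (33.3% called, median 0.04). The list mean lay between -0.56 and 0.10 in the AML arrays and between -0.22 and 0.33 in the DC arrays. Of the 4 markers not called, *Ncr1* lay at a mean of 3.50 and 3.36 in the AML and DC arrays and *Klrb1c* at 3.05 and 3.04, differences of 0.14 and 0.01, and *Fcer1g* and *Klre1* differed by 0.07 and 0.0082.

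Among regulators of effector and memory fate 1 of 11 rose and 1 fell. *Eomes*, a T-box factor of memory CD8+ cells, ranged from 8.64 to 9.80 (median 9.32) against 8.25 to 8.64 (median 8.52). It rose by 0.79 (SE 0.16, adjusted p = 0.0243), and AML arrays were above DC arrays throughout. *Rora*, a nuclear receptor of innate-like and helper cells, ranged from 6.06 to 7.17 (median 6.25) against 7.03 to 7.57 (median 7.15). The difference was -0.73 (SE 0.17, adjusted p = 0.0378), and 2 AML arrays overlapped. Leaving out any of 5 arrays ended the call of *Eomes* (adjusted p up to 0.057), and any array other than AML replicates 6 and 7 that of *Rora* (up to 0.0928). *Prdm1*, encoding Blimp-1 of terminal effector cells, ranged from 2.86 to 5.42 (median 4.45) against 4.74 to 6.45 (median 5.82), a difference of -1.46 (SE 0.36) that missed the threshold (adjusted p = 0.0515).

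Of 13 inhibitory receptors and TOX factors 1 rose and 1 fell, with a median of 0.01. *Tox*, a nuclear factor known from exhausted T cells, ranged from 8.98 to 9.56 (median 9.37) against 8.43 to 8.88 (median 8.67), a difference of 0.66 (SE 0.09, adjusted p = 0.00231). *Cd160*, a receptor for HVEM on cytotoxic cells, ranged from 7.90 to 8.07 (median 7.95) against 8.26 to 8.76 (median 8.48), a difference of -0.56 (SE 0.08, adjusted p = 0.00316). Neither gene overlapped between groups. *Pdcd1*, encoding PD-1, differed by 0.10 (SE 0.11), and *Lag3* and *Havcr2* by -0.04 and -0.05.

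Integrins and adhesion genes included 3 falls and no rise among 16, with a median of -0.03. *Itga7* (TC1000001626.mm.2), a laminin-binding integrin chain, ranged from 4.67 to 6.09 (median 5.25) in the AML arrays and from 6.67 to 7.23 (median 6.82) in the DC arrays. The difference was -1.61 (SE 0.20, adjusted p = 0.000511), 3.06-fold lower. *Itgb1*, the beta chain that pairs with it and with *Itga4*, ranged from 8.65 to 9.29 (median 9.0) against 9.34 to 9.75 (median 9.66), a difference of -0.63 (SE 0.10, adjusted p = 0.00645). *Itga4*, the alpha chain of VLA-4, ranged from 9.17 to 9.67 (median 9.38) against 9.69 to 10.01 (median 9.87), a difference of -0.46 (SE 0.08, adjusted p = 0.0129). All 3 were separate from the DC arrays in every AML array, and none of these calls was lost on leaving out any one array or AML replicates 4 and 5. Within replicates 4 to 7 alone all 3 calls were lost (adjusted p = 0.129 for *Itga7*, 0.152 for *Itgb1*, 0.17 for *Itga4*). That of *Itga4* was also lost within replicates 1 to 3 (0.0604). The unmoderated test with separate spreads called 0 genes lower. Gelsolin, *Gsn*, which severs actin filaments, ranged from 5.64 to 6.90 (median 6.42) against 6.77 to 7.91 (median 7.50), a difference of -1.09 (SE 0.19, adjusted p = 0.0101).

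Annexins and S100 proteins, calcium-binding proteins of membranes and cytoskeleton, counted 3 falls and no rise among 15 (median -0.18). *S100a6* ranged from 4.75 to 5.99 (median 5.55) against 6.07 to 6.78 (median 6.51), a difference of -0.99 (SE 0.18, adjusted p = 0.013). *Anxa5* fell by 0.57 (SE 0.13, adjusted p = 0.035), and neither gene overlapped. *Anxa4* fell by 1.09 (SE 0.25, adjusted p = 0.0417). Leaving out any of 10 arrays ended the call of *Anxa5* (adjusted p up to 0.0842) and any of 12 that of *Anxa4* (up to 0.0942). *Anxa2* ranged from 5.47 to 9.09 (median 8.52) against 9.26 to 9.65 (median 9.49), and its difference of -1.64 (SE 0.47) missed the threshold (adjusted p = 0.0976).

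Among innate sensors, *Tlr7* (TC0X00003360.mm.2), the endosomal receptor for single-stranded RNA, rose. It ranged from 8.56 to 9.60 (median 9.02) in the AML arrays and from 7.27 to 7.78 (median 7.68) in the DC arrays, with fresh-medium arrays at 7.34 to 7.96. The difference was 1.49 (SE 0.14, adjusted p = 3.62e-05), 2.80-fold, with 1.73 in replicates 1 to 3 and 1.31 in replicates 4 to 7. *Tlr6*, a partner of *Tlr2* in lipopeptide sensing, fell by 0.55 (SE 0.12, adjusted p = 0.0317), and leaving out any of 8 arrays ended that call (adjusted p up to 0.0726). These were the only calls among 12 genes of the list, whose median was -0.06. *Tlr7* is expressed in myeloid and B cells too. Of 15 myelomonocytic and 8 B cell markers none was called, and *Lyz2* lay at a mean of 3.65 in the AML arrays and 3.60 in the DC arrays. The part of such cells in the rise of *Tlr7* was not tested.

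Of 20 measured interferon-stimulated genes 3 rose (15%) and none fell, with a median of 0.15. Over all genes 0.636% were called higher. *Ifit3*, an RNA-binding antiviral protein, ranged from 7.11 to 8.71 (median 8.06) against 6.32 to 6.96 (median 6.70), a difference of 1.26 (SE 0.21, adjusted p = 0.00824) without overlap. Its near copy *Ifit3b* rose by 1.26 (SE 0.26, adjusted p = 0.0235), its call was lost without AML replicate 4 or 5 (up to 0.0532), and probes shared between such copies make the share of each uncertain. *Rtp4*, an interferon-induced chaperone of receptors, ranged from 5.28 to 6.25 (median 5.75) against 4.34 to 5.27 (median 4.68), a difference of 0.97 (SE 0.15, adjusted p = 0.00645). *Oasl2* rose by 0.58 (SE 0.12, adjusted p = 0.0209). Other core members gave *Isg15* -0.01 (adjusted p = 0.983), *Mx1* -0.49 (adjusted p = 0.17), *Rsad2* -0.19 and *Ifit1* 0.13. Of 17 genes induced by interferon gamma, *Socs1* was the only one called (median 0.09).

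Lists with no called gene included those of cell division. Of 20 S phase and 23 mitosis genes none was called, with medians of -0.10 and -0.18. The mean of the mitosis list was -0.55 and -0.53 in AML replicates 4 and 5, between -0.09 and 0.03 in the other AML arrays and between -0.05 and 0.06 in the DC arrays. Its median was 0.02 in replicates 1 to 3, -0.31 in the set of 4 to 7, and -0.03 without AML replicates 4 and 5. Of 21 genes of MYC and ribosome biogenesis 1 fell, *Wdr12*, a ribosome assembly factor, by 0.31 (adjusted p = 0.0417), and leaving out any of 12 arrays ended its call (up to 0.0931). *Myc* differed by 0.36 (adjusted p = 0.078). It was called within replicates 1 to 3 (0.53, adjusted p = 0.0422), and without AML replicate 6 (0.0433) or DC replicate 6 (0.0472). No gene was called among 17 of cholesterol synthesis, 15 of the naive state, 12 killer lectin-like receptors, 12 chemokines, 12 glucocorticoid targets, 8 aryl hydrocarbon receptor targets and 10 of polyamine turnover. The largest differences were 1.04 for *Ccl3* among the chemokines and -0.55 for *Fkbp5* among the glucocorticoid targets. *Fkbp5* was called without AML replicate 6 (adjusted p = 0.019) or 7 (0.0382) or DC replicate 1 (0.0497). In the list of metallothioneins and zinc handling, the zinc-binding *Mt2* and *Mt1* had differences of -2.07 (SE 0.53, adjusted p = 0.0616) and -1.76 (SE 0.50, adjusted p = 0.0886). *Mt2* ranged from 5.66 to 10.12 (median 8.50) in the AML arrays, while the DC arrays started at 9.79 (median 10.26), and it was called when AML replicate 6 or 7 was left out (adjusted p = 0.0228 to 0.0268).

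**Figure D4:**
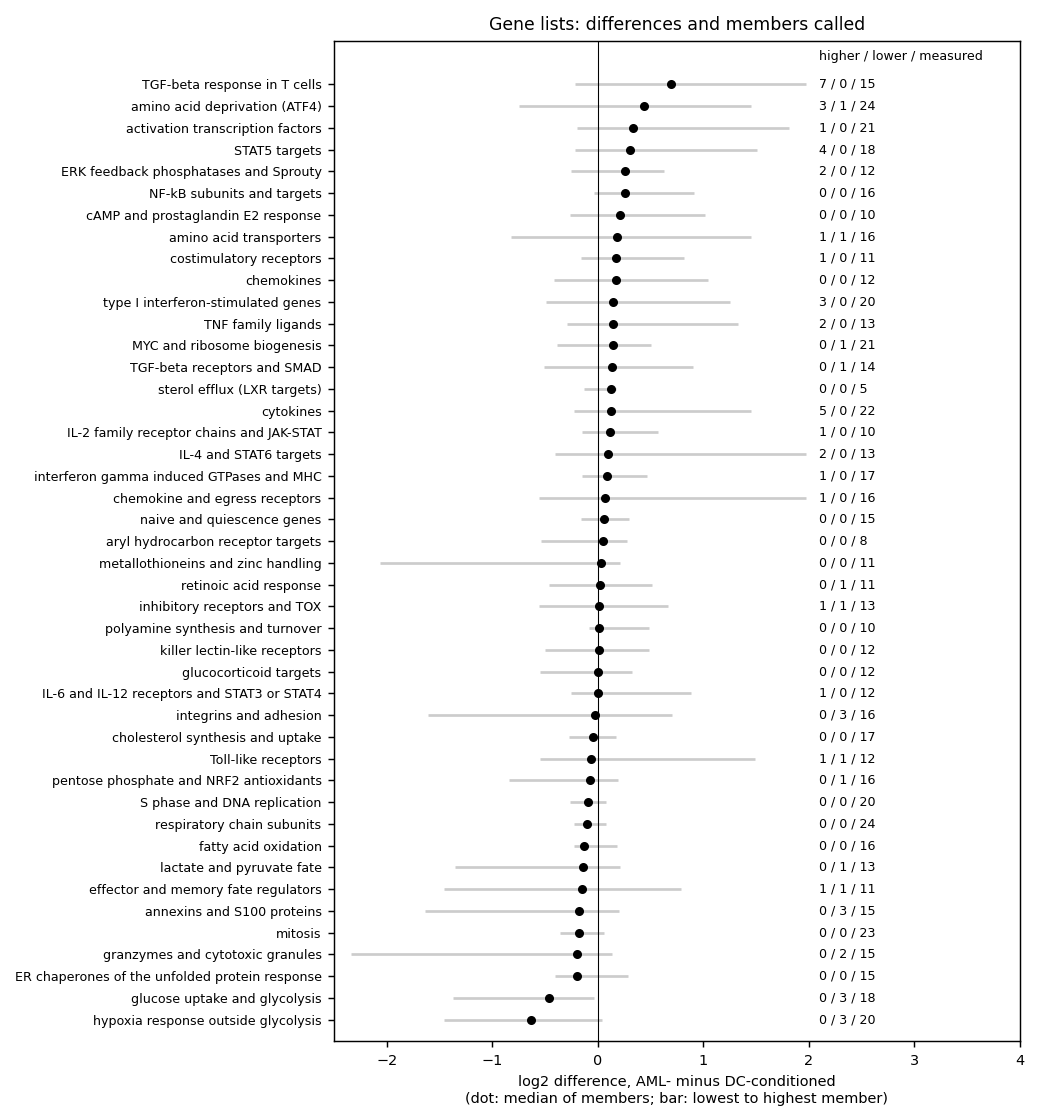
Median (dot) and range (bar) of the log2 difference between AML- and DC-conditioned medium over the measured members of 44 gene lists, with the number called higher, called lower and measured at the right. The TGF-beta response is at the top with a median of 0.69 and 7 rises among 15 genes, and the hypoxia list at the bottom with -0.63 and 3 falls among 20.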

How the data were processed

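The 21 samples were hybridised to arrays of a single colour. Values were deposited on the log2 scale, 1 per transcript cluster. They come from RMA in oligo, an R package, as the submitters' processing notes say; versions and genome build are not given in the sources used here. RMA subtracts background, equalises the arrays by quantiles and summarises probes, so differences of weak genes are compressed. Of 22203 transcript clusters 19572 had 1 symbol, 0 several and 2631 none. Where a symbol had several clusters, that of highest overall mean stood for it, giving 19505 genes, all matched to RefSeq (GRCm38.p6).

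The 14 AML and DC arrays were fitted with limma 3.58.1 in R 4.3.3 (lmFit, eBayes, no covariate, no filter on level), two-sided, with Benjamini-Hochberg adjustment over all genes. The threshold for a call was an adjusted p of 0.05. "Rose" and "fell" refer to called genes, and differences are AML minus DC with their SE. The fit was tested on simulated data. The number of arrays limits the precision.

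The comparison, the gene lists (44 of pathways, 10 of cell types) and the rule for named genes were chosen with earlier results of these data known. The rule takes 12 called genes in each direction by size (leaving aside clone names, small RNAs and receptor segments), up to 3 called members per list and direction by adjusted p (otherwise the member with the largest difference), and 23 fixed genes, of which 22 were measured. Other genes were named after their values were seen. Lists are described by counts and medians, without a test. The alternatives were other models, scalings, filters, array weights, replicate blocks and left-out arrays. Values from the unnamed clusters and the fresh-medium comparisons are not used here.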

Additional observations from a re-analysis of the deposited data

Results flagged for a closer look

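In 6 of 254 groups of 7 arrays, over the genes named by the rule and the means of lists with a called member, 1 array stood far from the rest of its group, where chance gives about 5% of groups (2.36% were found). *Ccr8* in DC replicate 3 lay at 4.43, below the other DC arrays, and *Cd163l1* in DC replicate 2 at 6.44 (6.435 before rounding), above them. *Il2ra* in AML replicate 2 was at 9.52. *Mgarp*, a mitochondrial protein gene, lay at 7.06 in DC replicate 6. *Pdcd1* was at 5.23 in DC replicate 7, and *Vcam1* at 3.20 in DC replicate 6.

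*Ciart*, a repressor of the circadian clock, was the only gene called for an interaction of medium with replicates 1 to 3 or 4 to 7. It was higher after AML-conditioned medium in the first set (0.60) and lower in the second (-0.68), an interaction of -1.28 (SE 0.17, adjusted p = 0.0218), while the pooled difference was -0.13. The DC arrays lay between 5.93 and 6.17 in replicates 1 to 3 and between 6.91 and 7.39 in replicates 4 to 7. Fresh-medium arrays lay between 6.36 and 6.58 in replicates 1 to 3 and between 6.96 and 7.33 in replicates 4 to 7. The AML arrays ran from 6.40 to 6.83 over both sets. Without AML replicate 2, 3 or 4, or DC replicate 1, 3, 4 or 5, no interaction was called for any gene.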

How the results depend on the processing

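The count of 249 genes depended on how the spread was estimated and on single arrays. It was 466 with all 21 arrays in the fit, 586 with the set of replicates as a block, 475 with the replicate number as a random effect, 10 within replicates 4 to 7, 79 without AML replicates 4 and 5, 872 without AML replicates 6 and 7, and 7 with an unmoderated test with separate spreads. Leaving out 1 array gave 93 to 588; it was 94 without AML replicate 4, 93 without 5, 588 without 6 and 398 without 7, DC replicate 5 (170) kept it within 1.5 times, and each other array gave 118 to 160. Of at least 2-fold genes (27) there were 48 with all 21 arrays, 41 with the set block, 43 with the random effect, 46 within replicates 1 to 3, 5 within 4 to 7, 11 with trend and robust estimation, 1 with separate spreads, 6 without AML replicates 4 and 5, 98 without 6 and 7, and 11 to 64 leaving out 1 array. Lists with at least 25% of members called (1) numbered 12 with all 21 arrays, 15 with the set block, 11 with the random effect, 6 within replicates 1 to 3, 3 after quantile normalization, 6 after a filter at the 25th percentile of level, 6 with array weights, 0 with separate spreads, 20 without AML replicates 6 and 7, and 1 to 15 leaving out 1 array.

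The labels do not say whether equal replicate numbers share an animal or a day, so pairing could not be settled. Deviations of equal-numbered AML and DC arrays correlated by 0.07 to 0.27, and 4 of 7 AML arrays correlated best with their own number. With a fixed replicate block 593 genes were called, 46 of them at least 2-fold, in 14 lists, and the interaction of medium with replicate set 0 times. That interaction (1 gene) counted 9 genes with trend and robust estimation, 2 with array weights, 76 without AML replicates 4 and 5, 980 without AML replicates 6 and 7, and 0 to 6 leaving out 1 array.

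No called gene of the named set reversed under any of the 29 alternatives, and of 56 such genes 4, *Ski*, *Skil*, *Pmepa1* and *Tlr7*, kept their call in all. Reversals concerned genes that were not called: within replicates 1 to 3 *Cd3e* (-0.0221), *Gzmb* (0.11), *Klf1* (-0.0116), *Klrk1* (0.0236), *Pdcd1* (-0.11), *Slc16a1* (0.0331) and *Vcam1* (-0.0211); within replicates 4 to 7 *Cd8a* (0.0450) and *Prf1* (0.14); without AML replicates 6 and 7 *Cd8a* (0.0191) and *Prf1* (0.0654); without AML replicates 4 and 5 *Klrk1* (0.23); with array weights *Cd163l1* (0.00026). Leaving out 1 array gave ranges across 0 for *Cd8a* (-0.0350 to 0.00907), *Prf1* (-0.121 to 0.0230), *Slc16a1* (-0.11 to 0.00763) and *Cd163l1* (-0.0815 to 0.00695). The share of higher calls, 49.8%, was 62.8% within replicates 1 to 3, 80% within replicates 4 to 7, 100% with separate spreads and 45.1% after centring. The causes were not tested. The sets and left-out runs hold fewer arrays, and their counts of called genes lay on both sides of the main count. Further quantile normalization, centring of each array, a level filter, the mean of clusters and array weights kept the count of called genes between 237 and 329. AML replicates 6 and 7 were left out after the data were seen.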

Other observations

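Several called genes lay outside the lists, so they give no count of a process. *Plod2*, *Mgarp*, *H2-Ab1*, *Il18*, *Galnt3* and *Palld*, here and below, were named by the rule, among the 12 largest falls. The others were named after their values were seen. The lipid droplet coat gene *Plin2* ranged from 5.14 to 6.43 (median 6.07) in the AML arrays and from 6.66 to 6.98 (median 6.85) in the DC arrays, a difference of -0.93 (SE 0.16, adjusted p = 0.0104) without overlap. *Hilpda*, an inhibitor of lipolysis induced by hypoxia, fell by 0.79 (adjusted p = 0.0459). Glycogen phosphorylase *Pygl* fell by 0.94 (SE 0.17, adjusted p = 0.0133), and *Slc37a4*, which carries glucose 6-phosphate into the endoplasmic reticulum, fell by 0.88 (adjusted p = 0.0485). *Plod2*, a collagen-modifying enzyme, fell by 1.17 (adjusted p = 0.0441), a call lost on leaving out any of 11 arrays (up to 0.0945). *Mgarp* ranged from 3.44 to 6.34 (median 5.30) against 6.62 to 7.06 (median 6.68), a difference of -1.59 (adjusted p = 0.0271) whose call was lost on leaving out any of 5 arrays (up to 0.0636).

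The mitochondrial enzymes *Gpt2*, an alanine transaminase, and *Pck2*, which makes phosphoenolpyruvate, rose by 0.97 (adjusted p = 0.0385) and 0.59 (adjusted p = 0.0396). In both the difference was larger in replicates 1 to 3 (1.49 and 0.88) than in replicates 4 to 7 (0.57 and 0.37), which was not called as an interaction. Among lysosomal genes, acid sphingomyelinase *Smpd1* fell by 0.80 (SE 0.13, adjusted p = 0.00831), heparanase *Hpse* by 0.87 (adjusted p = 0.0476) and *Acp5* by 0.41 (adjusted p = 0.0263), while cathepsin S, *Ctss*, rose by 0.61 (SE 0.11, adjusted p = 0.0112).

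Genes of MHC class II did not move together. *H2-Ab1* ranged from 5.60 to 8.15 (median 6.89) against 8.10 to 8.89 (median 8.13), a difference of -1.39 (SE 0.33, adjusted p = 0.0476) that lost its call on leaving out any array other than AML replicates 6 and 7 (adjusted p up to 0.098). *H2-Aa* had means of 5.94 and 5.90 in the AML and DC arrays, and *H2-Eb1* 4.62 in both, a level that cannot be called present or absent. *H2-DMb1*, which loads peptides, rose by 0.66 (adjusted p = 0.0476). *H2-DMb2* differed by 0.82 (adjusted p = 0.143) and *H2-DMa* by 0.40 (adjusted p = 0.279). *H2-DMb2* was called within replicates 1 to 3 (0.64, adjusted p = 0.0171). Of 8 B cell and 10 dendritic cell markers none was called. *Il18*, an inflammatory cytokine, ranged from 2.69 to 3.87 (median 3.47) against 3.91 to 5.33 (median 4.45), a difference of -1.12 (adjusted p = 0.0144) near the lower end of the scale. *Galnt3*, which starts O-glycosylation, and *Palld*, an actin-binding protein, fell by 1.22 (adjusted p = 0.0243) and 1.24 (adjusted p = 0.0465). Leaving out any of 4 arrays ended the call of *Galnt3* (up to 0.0567) and any of 12 that of *Palld* (up to 0.104).

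Among other clock genes *Nr1d2* rose by 0.62 (adjusted p = 0.0482) and *Clock* differed by 0.30 (adjusted p = 0.0664), *Per3* by 0.37 (adjusted p = 0.115) and *Per2* by 0.33 (adjusted p = 0.18). The rest of the clock genes looked up were not called: *Nr1d1* (0.31), *Dbp* (0.25), *Arntl* (0.24), *Cry2* (0.05), *Cry1* (0.05), *Per1* (0.04), *Tef* (0.0056) and *Bhlhe41* (-0.07).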
